A study of Homo sapiens with 12 samples.

Results

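The genes described here were the alpha and beta tubulins TUBA1A, TUBA1B, TUBA1C, TUBA4A, TUBB, TUBB2A, TUBB4B and TUBB6, taken by gene symbol, 8 of the 58302 genes in the deposited expression table (4 alpha and 4 beta). They were followed in 6 input libraries from DLD1 cells, a long-established colorectal carcinoma line, at passage 5. Of these, 3 libraries were labelled shNAT10, for a short hairpin RNA against NAT10, the acetyltransferase that writes N4-acetylcytidine (ac4C) on RNA, and 3 were labelled shNC, the control hairpin. All were total RNA in fragments of 100 to 200 nt, read as 150 bp pairs, before immunoprecipitation with an ac4C antibody. Nothing said that the replicates were separate cultures, so the spread between these samples may be technical. The limma SE and p-values rest mostly on the spread of genes of like level, and little on each gene's own spread. The authors' table of differential ac4C peaks was searched for the same genes.

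Microtubules are hollow polymers of heterodimers, each made of an alpha and a beta tubulin, that form the mitotic spindle, the tracks of intracellular transport and the core of cilia. Humans carry several genes (isotypes) for each, whose proteins are nearly identical over most of their length and differ chiefly in the acidic C-terminal tail. Cells also limit their own tubulin: when free heterodimers are abundant, tubulin mRNAs are destroyed during translation, a step in which TTC5 recognises the nascent chain. TUBA1B, TUBA1C, TUBB and TUBB4B are the isotypes of most dividing cells, while TUBA1A and TUBB2A are best known from neurons.

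The labels were not borne out by the targeted gene. NAT10 was listed at FPKM 0, 28.1 and 31.4 in the libraries labelled shNAT10, against 1.24, 3.95 and 2.89 in shNC (FPKM is fragments per kilobase of gene, scaled to the size of the library). Only replicate 1 lay below the shNC libraries. The difference was not called (log2 difference 1.48, SE 1.86, limma adjusted p = 0.754). It was 3.13 without replicate 1 of the libraries labelled shNAT10, 0.70 without replicate 2 and 0.62 without replicate 3. Every direction given here is that of the label. Fragments recovered on genes ranged from 1224097 to 1303818 in the libraries labelled shNAT10 and from 2636810 to 2758067 in shNC. Dropout was frequent: of genes with at least 100 fragments in a library, 48.7% were at 0 in another replicate of the group labelled shNAT10, and 45.2% in shNC. For that reason a value of 0 is given as listed at 0. Libraries of the same label were hardly more alike than libraries of different labels. Over the tested genes, Pearson correlations of log2(FPKM + 1) were 0.38 to 0.41 within a label and 0.37 to 0.40 across labels. Of the epithelial markers, 8 of 8 were above 0, with summed levels of 8107 to 8583 FPKM in the libraries labelled shNAT10 and 5026 to 5384 in shNC. KRT8 led the sum, at 5643, 5573 and 5866 against 3112, 3774 and 3294, and was not called (limma adjusted p = 0.598). Of the 7 markers tested, 4 had a positive and 3 a negative difference. Neuronal markers were nearly absent, with 5 of 6 at 0 in every library and MAP2 at 0.101 in 1 shNC library.

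The upstream sequences of 4 of these genes are shown to set the 3 of highest median level, TUBB, TUBA1B and TUBB4B, beside TUBA1A, 1 of the 3 with a median FPKM under 1. Each is 300 bases around the RefSeq start, mostly upstream of it (RefSeq, GRCh38.p14), 5′ to 3′ on the gene's strand. Capitals mark matches on either strand to 3 promoter motifs, which are the CCAAT box, the TATA box searched as TATAAA, and the GC box searched as GGGCGG. They cover chr6:30720102-30720401 (TUBB, plus strand), chr9:137241037-137241336 (TUBB4B, plus strand), chr12:49131346-49131645 (TUBA1B, minus strand) and chr12:49189031-49189330 (TUBA1A, minus strand).
TUBB: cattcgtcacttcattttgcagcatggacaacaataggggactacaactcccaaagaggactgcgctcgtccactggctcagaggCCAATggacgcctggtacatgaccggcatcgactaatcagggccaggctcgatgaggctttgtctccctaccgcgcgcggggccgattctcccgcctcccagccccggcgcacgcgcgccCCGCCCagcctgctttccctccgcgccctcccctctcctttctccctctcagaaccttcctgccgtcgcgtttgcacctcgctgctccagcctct
TUBB4B: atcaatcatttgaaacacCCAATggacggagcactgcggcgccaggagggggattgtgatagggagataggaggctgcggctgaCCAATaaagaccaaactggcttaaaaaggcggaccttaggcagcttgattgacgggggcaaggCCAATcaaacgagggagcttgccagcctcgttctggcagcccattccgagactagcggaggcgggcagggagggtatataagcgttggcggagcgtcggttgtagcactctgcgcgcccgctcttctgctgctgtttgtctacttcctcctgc
TUBA1B: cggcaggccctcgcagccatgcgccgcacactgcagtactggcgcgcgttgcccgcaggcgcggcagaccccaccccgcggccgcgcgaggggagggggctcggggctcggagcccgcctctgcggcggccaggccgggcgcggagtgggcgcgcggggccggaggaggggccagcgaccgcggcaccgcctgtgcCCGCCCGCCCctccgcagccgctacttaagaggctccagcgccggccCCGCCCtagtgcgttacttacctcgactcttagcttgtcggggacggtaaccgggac
TUBA1A: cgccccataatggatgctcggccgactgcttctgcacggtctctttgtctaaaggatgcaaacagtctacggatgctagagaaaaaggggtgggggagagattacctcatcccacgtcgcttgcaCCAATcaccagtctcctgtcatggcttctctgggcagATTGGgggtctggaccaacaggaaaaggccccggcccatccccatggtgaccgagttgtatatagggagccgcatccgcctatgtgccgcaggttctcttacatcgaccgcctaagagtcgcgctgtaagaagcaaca
TUBB4B held 3 CCAAT matches and 0 of GGGCGG, and TUBA1B held 0 of CCAAT and 3 of GGGCGG. The TUBB window shown held 1 of each, and TUBA1A held 2 CCAAT matches and 0 of GGGCGG. The bases G and C made up 63.3% of the TUBB window, 57.3% of TUBB4B, 77.0% of TUBA1B and 55.7% of TUBA1A. A second TUBB window, at chr6:30721388-30721687, held 0 of CCAAT and 6 of GGGCGG, with 75.3% G and C. The other genes with a median FPKM under 1 differed from TUBA1A. TUBB2A held 0 of CCAAT and 5 of GGGCGG, with 79.0% G and C, and TUBA4A held 0 and 4, with 69.3%. The letters TATAAA occurred in none of the 4 windows printed above, and other forms of the TATA box were not searched. Over 35116 promoter windows of the same length, CCAAT occurred in 34.6%, GGGCGG in 45.0% and TATAAA in 11.5%. The 8 tubulin genes had 12 windows in all, of which 7 held CCAAT, 7 held GGGCGG and 1, that of TUBB2A, held TATAAA. Some genes had several windows, so these are not counts of genes. The TUBA1C windows at chr12:49227676-49227975 and chr12:49227769-49228068 overlap and hold the same CCAAT, counted with each. These matches are letters in a window and were not related to binding.

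The tubulin signal came from few isotypes. Of the 8 genes, 5 were above 0 in all 6 libraries (22.6% of the 10517 tested genes were), and 3 were listed at 0 in at least 1. By median FPKM over the 6 libraries the order was TUBB (212), TUBA1B (114), TUBB4B (105), TUBA1C (21.7), TUBB6 (13.7), TUBB2A (0.874), TUBA1A (0.433) and TUBA4A (0.0358). The only neighbours in this order whose ranges did not overlap were TUBB6 (5.07 to 32.6) and TUBB2A (0 to 3.75). TUBB exceeded TUBA1B in 5 of 6 libraries, and TUBB4B exceeded TUBA1C in 6 of 6. TUBA1B and TUBB4B changed places between libraries, with TUBA1B higher in 3 of 6. TUBA1C was above TUBB6 in 2 of 6. Mean levels of TUBB and TUBB4B stood at or above those of 97.6% and 96.0% of tested genes, and TUBB2A at or above 7.52%.

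**Figure D1:**
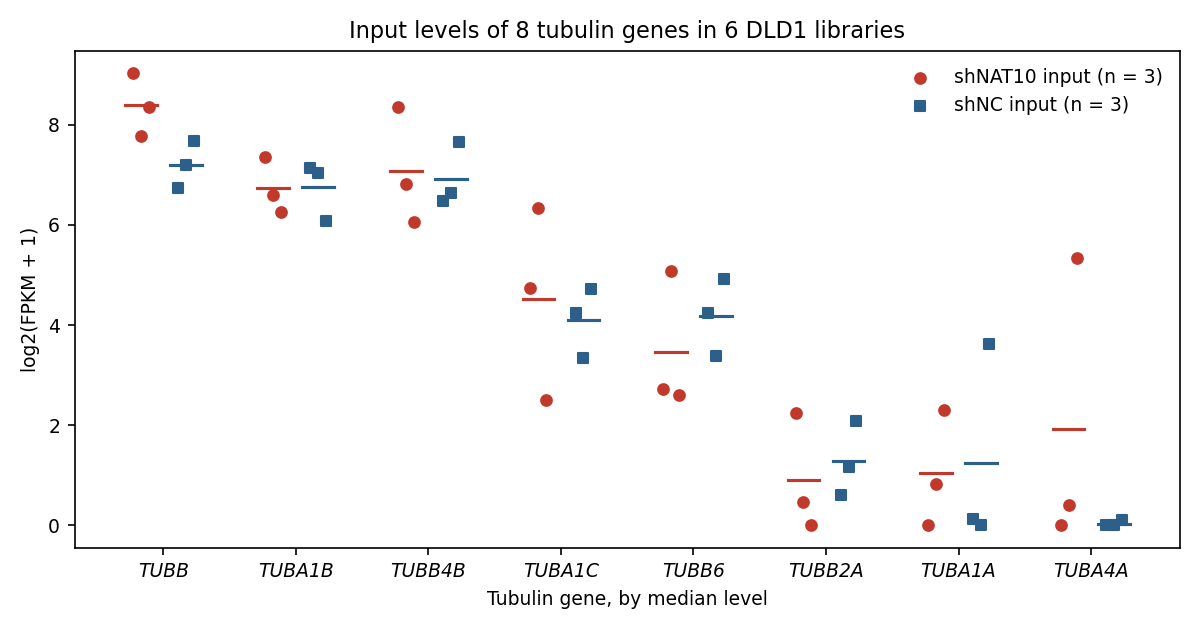
Input level of each tubulin gene as log2(FPKM + 1) (y axis), with genes ordered by median level (x axis). Points are single libraries, circles for those labelled shNAT10 and squares for shNC, and bars are group means. TUBB is the gene whose groups do not overlap, and TUBA4A is near 0 in every library but replicate 3 of those labelled shNAT10.

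Among the beta tubulins, TUBB (ENSG00000196230, chr6:30720352-30725422 in GRCh38), the main beta isotype of dividing cells, was higher in every library labelled shNAT10 than in any shNC library. It had FPKM 521, 219 and 326 in the libraries labelled shNAT10, against 105, 146 and 204 in shNC. The means were 356 ± 153 and 151 ± 49.8 (SD, n = 3 each). With a log2 difference of 1.19 (SE 0.85, 95% interval -0.49 to 2.86), TUBB was not called (limma adjusted p = 0.754 over all tested genes). The exact two-sided permutation p was 0.1, the smallest that 3 against 3 libraries can give. Groups did not overlap for 1 of the 8 tubulin genes, against 9.61% of all tested genes in either direction. In this direction the share was 2.89% of all tested genes and 11.6% of the 584 genes averaging 100 FPKM or more.

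The separation of TUBB was one of share and not of fragment number. The deposited values rested on 2433, 1104 and 1312 TUBB fragments in the libraries labelled shNAT10 and on 1189, 1609 and 2346 in shNC, numbers that overlapped. As a share of fragments recovered on genes, TUBB took 0.187%, 0.0895% and 0.107% in the libraries labelled shNAT10 and 0.0431%, 0.0610% and 0.0867% in shNC. The nearest libraries across the groups were within counting error of each other. Their exact (Clopper-Pearson) 95% intervals were 0.0843% to 0.0950% for replicate 2 of those labelled shNAT10 and 0.0832% to 0.0903% for shNC replicate 3. PCR copies were not marked, so these intervals cover counting error only. In these bulk libraries, more cells with a transcript and more transcript per cell cannot be told apart. Summed fibroblast and muscle markers also lay higher in the libraries labelled shNAT10, at 25.0 to 87.6 FPKM against 1.12 to 6.34 in shNC over 9 genes. All 9 were above 0 somewhere. Of them 4 were tested, all with a positive difference, and 0 had an unadjusted p under 0.05 by limma. The sum rested on different genes in different libraries. VIM had FPKM 0, 0.129 and 78.0 in the libraries labelled shNAT10, against 0, 1.12 and 6.34 in shNC. TAGLN had 68.9, 2.04 and 1.49, against 0, 0 and 0. The part of these markers in the TUBB values was not tested.

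TUBB4B (ENSG00000188229, chr9:137241287-137243707), a broadly used beta isotype also found in cilia, had FPKM 328, 112 and 65.6 in the libraries labelled shNAT10, against 87.7, 98.4 and 201 in shNC. Its groups overlapped throughout, with the lowest and the highest of the 6 values both in libraries labelled shNAT10. The log2 difference was 0.16 (SE 1.02, 95% interval -1.85 to 2.16, limma adjusted p = 0.970), and it changed sign with scaling, at -0.12 on the TPM scale and -0.15 after quantile normalization. TUBB6 (ENSG00000176014, chr18:12307669-12329826), a widely expressed isotype with a divergent tail, had 5.59, 32.6 and 5.07 in the libraries labelled shNAT10, against 18.0, 9.39 and 29.3 in shNC. Its highest value also lay in a library labelled shNAT10, and the difference was -0.72 (SE 1.69, 95% interval -4.04 to 2.61, limma adjusted p = 0.895). It was -1.52 without replicate 2 of the libraries labelled shNAT10, -0.29 without replicate 3 and -0.35 without replicate 1 or without shNC replicate 3. Without shNC replicate 2 it was -1.12. TUBB2A (ENSG00000137267, chr6:3153666-3157544) had 3.75, 0.386 and 0 in the libraries labelled shNAT10, against 0.513, 1.23 and 3.21 in shNC. No library gave it more than 19 fragments.

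Within the beta family, TUBB and TUBB4B together made up 90.9% to 98.9% of the summed FPKM in the libraries labelled shNAT10 and 91.2% to 95.8% in shNC. TUBB took 60.7%, 60.3% and 82.2% of beta FPKM in the libraries labelled shNAT10, against 49.6%, 57.2% and 46.6% in shNC. TUBB4B took 38.2%, 30.7% and 16.5%, against 41.6%, 38.6% and 46.0%. The shares did not overlap for either gene, though the nearest TUBB4B shares were 38.2% and 38.6%. As these genes make up nearly all of the sum, their shares are not separate observations. The shares are a description, since TUBB alone had separated, and a difference in balance was not tested. The ratio of TUBB to TUBB4B was 1.59, 1.97 and 4.97 in the libraries labelled shNAT10, against 1.19, 1.48 and 1.01 in shNC. TUBB was above TUBB4B in 6 of 6 libraries, by the least in shNC replicate 3.

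Among the alpha tubulins, TUBA1B (ENSG00000123416, chr12:49127782-49131395), the general alpha isotype of dividing cells, had nearly equal group means. It had FPKM 162, 96.4 and 75.9 in the libraries labelled shNAT10, against 139, 131 and 66.4 in shNC. The means were 111 ± 44.8 and 112 ± 39.9 (SD, n = 3 each), with fully overlapping groups. Its log2 difference was -0.01 (SE 1.07, limma adjusted p = 0.997). The 95% interval of -2.12 to 2.1 still allowed a change of either sign. TUBA1B was the most abundant alpha gene in every library, with 86.3%, 54.3% and 61.1% of alpha FPKM in the libraries labelled shNAT10 and 88.5%, 93.5% and 64.4% in shNC.

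TUBA1C (ENSG00000167553, chr12:49227926-49274600) lies in the same cluster of alpha genes on chromosome 12. It had FPKM 25.6, 80.1 and 4.69 in the libraries labelled shNAT10, against 18.0, 9.14 and 25.3 in shNC. The highest value was 17.1 times the lowest among the libraries labelled shNAT10 and 2.77 times among shNC. The difference was 0.43 (SE 1.60, limma adjusted p = 0.939). TUBA1A (ENSG00000167552, chr12:49184795-49189080) was listed at 0, 0.780 and 3.90 in the libraries labelled shNAT10, against 0.0864, 0 and 11.3 in shNC. All but 21 of its fragments came from shNC replicate 3, which had 132. The neuronal beta isotypes TUBB3 and TUBB2B were listed at 0 in every library.

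TUBA4A (ENSG00000127824, chr2:219249710-219254740), whose protein ends without the encoded C-terminal tyrosine of most alpha tubulins, rested on 1 library. It was listed at 0, 0.327 and 39.7 in the libraries labelled shNAT10, against 0, 0 and 0.0715 in shNC, from 0, 2 and 194 fragments against 0, 0 and 1. In replicate 3 of the libraries labelled shNAT10 it thus made up 32.0% of alpha FPKM, against at most 0.184% in any other library. Its log2 difference of 1.89 (SE 1.56, 95% interval -1.18 to 4.95) was the highest of the 8, with a limma adjusted p of 0.754, and was not called. It was 2.84 without replicate 1 of the libraries labelled shNAT10, 3.32 with a pseudocount of 0.1 and 4.23 by voom on whole fragments. Without replicate 3 its mean fell below the filter and it was not tested. VIM, a filament gene of mesenchymal cells, was also highest in that library. It had FPKM 78.0, against 0.129 or less in the other libraries labelled shNAT10 and at most 6.34 in shNC. TAGLN, from the same marker list, went the other way among the libraries labelled shNAT10, with 1.49 in replicate 3 against 68.9 and 2.04. The part of these markers in the TUBA4A value was not tested. TUBA4A shares 628 bases of its RefSeq span with STK16 and 1498 with TUBA4B, both listed at 0 in that library. The sources used here do not say whether counting used strand.

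**Figure D2:**
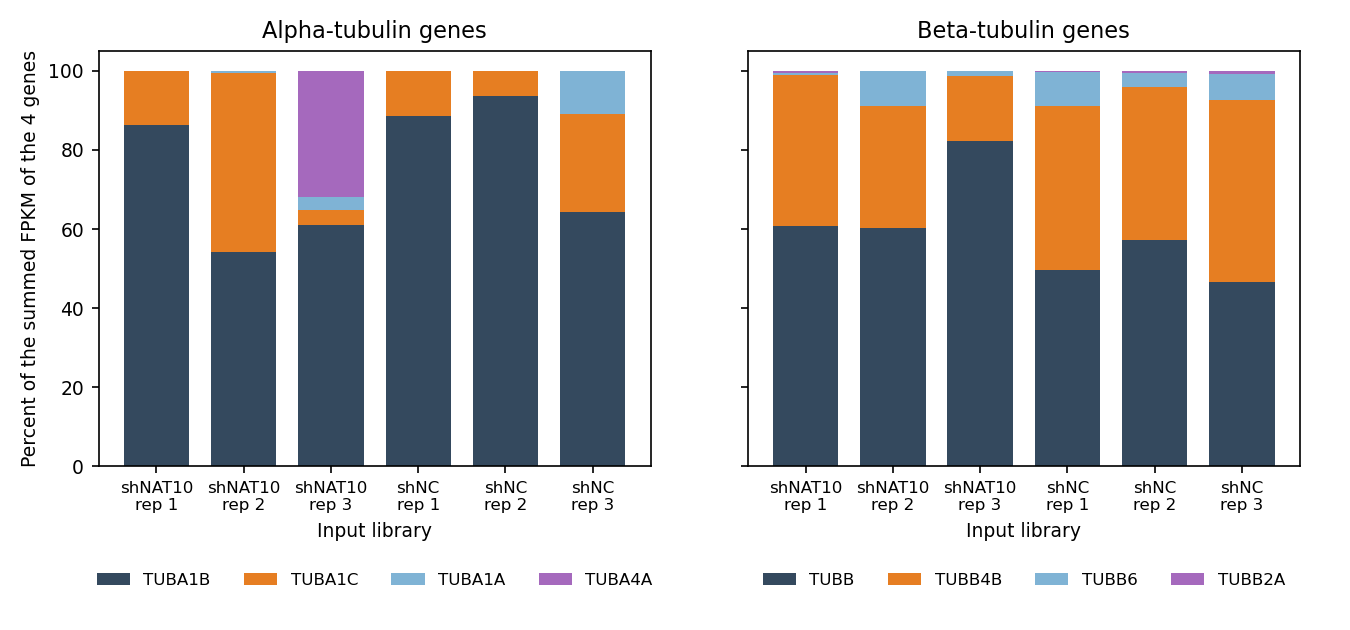
Share of each isotype in the summed FPKM of the 4 alpha genes (left) and the 4 beta genes (right), in percent (y axis), for each input library (x axis). TUBA1B is the most abundant alpha gene and TUBB the most abundant beta gene in 6 of 6 libraries, and TUBA4A takes 32.0% of alpha in replicate 3 of those labelled shNAT10.

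Summed over the 4 genes of each family, beta tubulin was at FPKM 858, 364 and 397 in the libraries labelled shNAT10, against 211, 255 and 438 in shNC. Alpha tubulin was at 187, 178 and 124, against 157, 140 and 103. Both sums overlapped between groups, the beta sum because of shNC replicate 3 and the alpha sum by replicate 3 of the libraries labelled shNAT10. The ratio of alpha to beta FPKM was 0.218, 0.488 and 0.313 in the libraries labelled shNAT10, against 0.746, 0.550 and 0.235 in shNC. Beta thus exceeded alpha in FPKM in every library, although the proteins pair one to one. FPKM depends on the gene length used, recovered here as 3574 nt for TUBA1B, 3359 nt for TUBB and 2111 nt for TUBB4B. Whether these lengths match the transcripts present was not tested, so the ratio need not be one of RNA molecules. Tubulin fragments made up 0.169% to 0.338% of those on genes in the libraries labelled shNAT10 and 0.146% to 0.206% in shNC.

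Of the 8 tubulin genes, 0 passed the limma test and 0 had an unadjusted p under 0.05, by limma on log2(FPKM + 1). Over all 10517 tested genes 389 had an unadjusted p under 0.05, and limma called 20 (0.190%), of which 9 were higher in the libraries labelled shNAT10 (0.0856%). The median log2 difference of the 8 was 0.07, against -0.49 over all tested genes, and 7 of 8 lay above that all-gene median. The median of all tested genes moved with scaling, to -0.74 on the TPM scale and -0.08 after quantile normalization. Relative to it TUBB stood 1.68 higher as deposited, 1.66 on the TPM scale and 0.91 after quantile normalization. Within groups the tubulin genes had a median SD of 1.06 on the log2 scale, against 1.80 over all tested genes and 1.05 over genes averaging 100 FPKM or more.

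**Figure D3:**
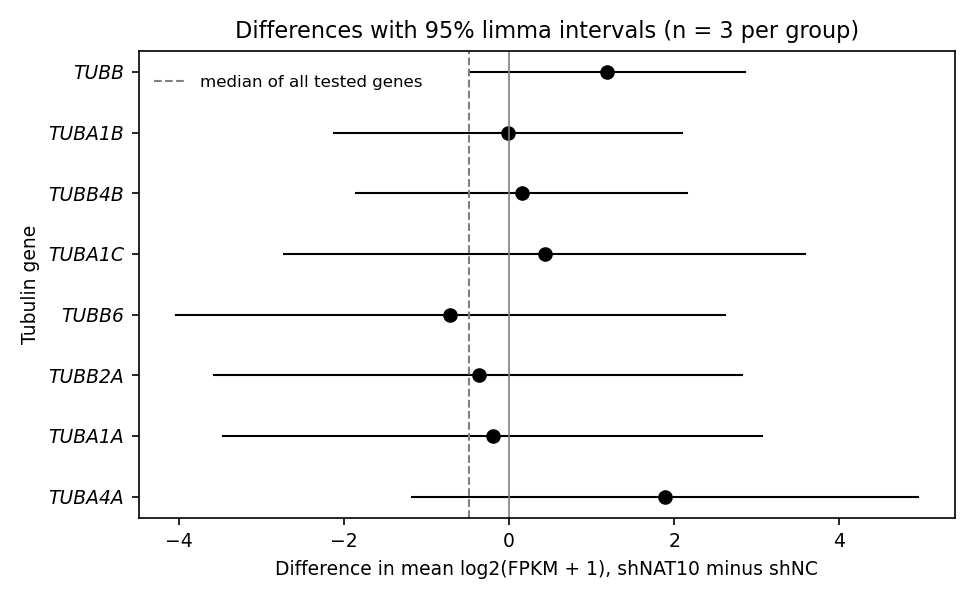
Difference in mean log2(FPKM + 1), libraries labelled shNAT10 minus shNC (x axis), for each tubulin gene (y axis), with 95% limma intervals (n = 3 per group). All 8 intervals include 0, and the dashed line marks the median of all tested genes at -0.49.

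The tubulin genes did not move as one across the 6 libraries. Pearson correlations of log2(FPKM + 1) between pairs ran from -0.94 (TUBA1B and TUBA1A) to 0.93 (TUBB4B and TUBB2A). They are a description over 6 libraries that share depth within a group. Both extremes include a gene with few fragments in most libraries. TUBA1A had 0, 4 and 16 fragments in the libraries labelled shNAT10 and 1, 0 and 132 in shNC. TUBB2A had at most 19 in any library. The leading alpha and beta genes, TUBA1B and TUBB, had a correlation of -0.02. Of 1836 genes above 0 in all libraries and averaging 10 FPKM or more, the gene most like the summed tubulin level was RPS2, a protein of the small ribosomal subunit (r = 0.968). RPS2 had FPKM 2625, 1613 and 1190 in the libraries labelled shNAT10, against 974, 934 and 1305 in shNC. It was followed by HIST2H2AA4, a histone H2A gene (0.965), CAMSAP3, which binds microtubule minus ends (0.961), HIST1H3A, a histone H3 gene (0.945), and TRAF4, a signalling adaptor (0.938). With 6 libraries, 12 of the 1836 genes exceeded a value of 0.9, and replicate 1 of the libraries labelled shNAT10 was the highest for each of these 5.

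Genes that fold, modify or organise tubulin gave 0 calls in 5 lists. Of the folding and autoregulation genes, 12 of 15 were tested, 11 of them with a negative difference (58.8% of all tested genes had one). Their median was -1.32, and 1 had an unadjusted p under 0.05, as 389 of all 10517 tested genes did. This was TBCE, a cofactor that takes part in assembling the heterodimer, named after its values were seen. TBCE had FPKM 0.841, 0 and 0.975 in the libraries labelled shNAT10, against 40.7, 25.4 and 25.5 in shNC (log2 difference -4.32, limma adjusted p = 0.754). Its groups did not overlap, which held for 9.61% of all tested genes in either direction. PFDN2, a subunit of the prefoldin that hands unfolded tubulin and actin to the chaperonin, had 4.25, 12.8 and 244, against 86.4, 142 and 126. TBCA, which holds beta tubulin after its release from the chaperonin, had 105, 17.7 and 0.546 in the libraries labelled shNAT10, against 36.1, 80.8 and 21.2 in shNC. Both overlapped.

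The tubulin-modifying enzymes had 7 of 20 genes tested and a median of -0.52. AGBL5, a carboxypeptidase that trims glutamates from tubulin, had 1.09, 1.39 and 3.63 in the libraries labelled shNAT10, against 54.2, 18.8 and 20.3 in shNC. Its groups did not overlap, as for 9.61% of all tested genes in either direction. The AGBL5 difference of -3.33 (SE 1.78) did not pass (limma adjusted p = 0.754). TTLL12, of the tubulin tyrosine ligase family, had 11.5, 18.6 and 49.1, against 3.96, 0.856 and 23.4, and overlapped. Of the microtubule-binding genes 19 of 22 were tested, with a median difference of -0.16 (-0.49 over all tested genes). Of these, 8 were positive and 11 negative, and 0 had an unadjusted p under 0.05 by limma. Their summed level lay higher in the libraries labelled shNAT10 and did not overlap, at 282 to 332 FPKM against 99.7 to 208 in shNC. How often sums over other gene lists separate in this way was not tested. The genes that carried the sum differed between libraries, with MAPRE1 at 114 in replicate 1 and TPX2 at 142 in replicate 2 of those labelled shNAT10. Among them TPX2, a spindle assembly factor, had 27.3, 142 and 114 in the libraries labelled shNAT10, against 9.67, 29.8 and 4.05 in shNC, and overlapped. MAPRE1, which tracks growing microtubule ends, had 114, 1.53 and 0, against 71.6, 35.9 and 13.0.

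The gamma tubulin ring complex, which starts new microtubules, had 7 of 10 genes tested and a median difference of 1.45 (-0.49 over all tested genes). Of the 7, 5 were positive and 2 negative, and 0 had an unadjusted p under 0.05 by limma. Summed levels of the complex overlapped, at 38.2 to 147 FPKM in the libraries labelled shNAT10 against 24.0 to 96.4 in shNC. Its small subunit MZT1 had FPKM 115, 0 and 0 in the libraries labelled shNAT10, against 2.96, 43.4 and 89.6 in shNC. MZT2B, another small subunit, had 0.793, 56.3 and 0 in the libraries labelled shNAT10, against 0, 2.01 and 0 in shNC. Of the 14 other tubulins, 11 were listed at 0 in every library and 2 were tested. TUBG1, the gamma tubulin of most cells, had 0.895, 7.47 and 9.35 in the libraries labelled shNAT10, against 19.2, 27.4 and 0.968 in shNC. TUBG2 had 0.519, 0 and 0, against 6.40, 0 and 0. Tubulin pseudogenes took little signal: 36 of 38 were listed at 0, TUBBP1 reached 1.24 and TUBAP2 reached 0.414. The split between near-identical paralogs is uncertain, because the assignment of fragments they share is not described.

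In the authors' deposited table of differential ac4C peaks, 1 of the 8 tubulin genes had any peak, TUBB with 3. Among tested genes 15.4% had a peak, and 14.7% of those averaging 100 FPKM or more. TUBB was 1 of 61 genes with at least 3 peaks, of 1931 genes with any, and 1 of 15 whose peaks, at least 3, all had a negative deposited change. Of all 2364 deposited peaks, 61.7% were negative. Which hairpin was the numerator of that change was not stated, so its sign gives no direction. Coordinates were read as GRCh38, because 98.4% of the 2190 peaks whose symbol had a RefSeq gene lay within it.

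The first TUBB peak in the authors' deposited table spanned chr6:30722230-30722926 on the plus strand, 1878 nt from the RefSeq start. It was annotated as coding sequence in 3 blocks that held 151 nt. Its deposited fold was 8.23, below the table's median of 10.5, and its deposited log2 change was -4.7 (FDR 1.58e-38), the largest of the 3 in size. The second, also coding, covered chr6:30724317-30724467, 3965 nt from the start, with a deposited fold of 3.14 and a deposited change of -1.35 (FDR 2.00e-11). Of the negative peaks in the authors' table, 96.9% had a larger change than this one. The third lay in the 3' UTR at chr6:30725246-30725426, with a deposited fold of 34.0 and a deposited change of -3.4 (FDR 8.51e-06). It reached the end of the transcript, running 4 nt past the RefSeq end of the gene.

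The authors also counted sites of a motif with cytidines spaced evenly and any base between. Each coding TUBB peak in the deposited table had 2 sites, and the 3' UTR peak, with the highest fold of the 3, had 0. At least 1 site stood in 62.6% of all deposited peaks. In the first peak the sites stood at positions 30722565 and 30722577 of chromosome 6, within the 109 nt middle block, and in the second at 30724405 and 30724447. TUBB input itself was higher in the libraries labelled shNAT10 (521, 219 and 326 FPKM, against 105, 146 and 204 in shNC), and whether the deposited change was adjusted for input was not stated.

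**Figure D4:**
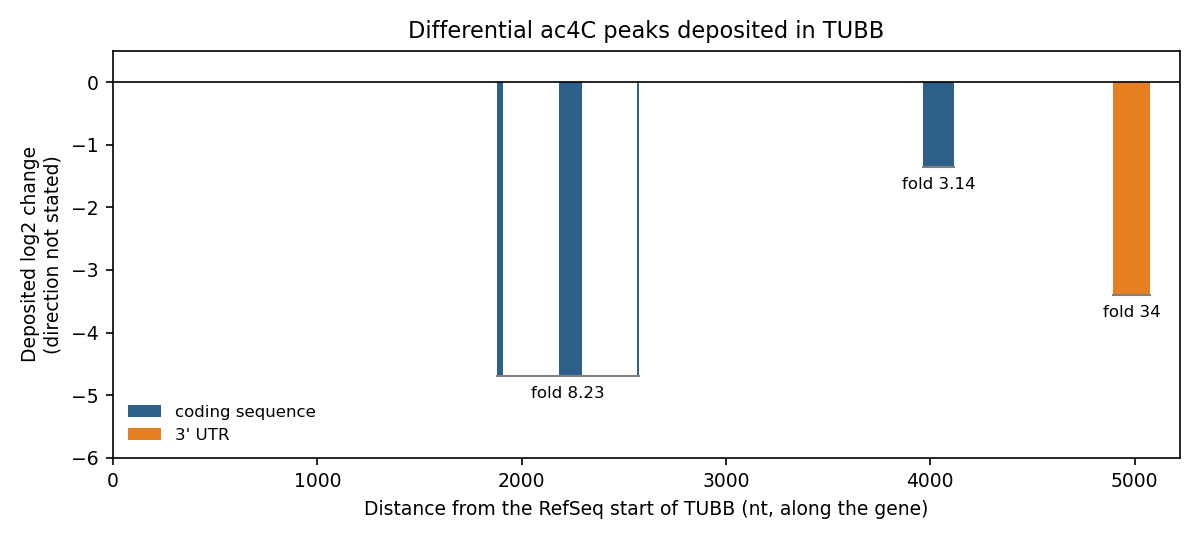
Differential ac4C peaks of TUBB in the authors' deposited table, by distance from the RefSeq start of the gene in nt (x axis) and deposited log2 change of unstated direction (y axis). Bars are the blocks of each peak, coding in blue and 3' UTR in orange, the grey line joins blocks of 1 peak, and the deposited fold is written below each peak. All 3 changes are negative, from -4.7 to -1.35.

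Among the 81 genes of the 5 tubulin-related lists, 15 had 17 peaks in the authors' deposited table. Over all tested genes, 15.4% had a peak. The 81 include genes that were not tested, so the counts are not of like sets. Of the 15, 10 came from the longest list, the 22 genes that bind microtubules or set their dynamics. The 20 tubulin-modifying enzymes had 1 gene with a peak, and the 15 folding and autoregulation genes had 2. The 14 other tubulins had 1, as did the 10 genes of the gamma tubulin ring complex. MAP4, a stabiliser of microtubules in dividing cells, had 2 coding peaks with deposited changes of -7.01 and -2.5. TUBG1 had 1 coding peak (deposited fold 2.52, change -2.06), and TBCC, which acts late in heterodimer assembly, had 1 with a deposited fold of 394 and a change of -4.9. TBCC input was 0, 0 and 0 FPKM in the libraries labelled shNAT10, against 6.95, 0 and 0 in shNC. TUBGCP4, a subunit of the gamma tubulin ring complex, had a coding peak with a negative deposited change (-5.13) and a 3' UTR peak with a positive one (8.13).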

How the data were processed

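Per the labels' protocols, the series held 12 libraries in 4 groups of 3 (input and immunoprecipitate of each hairpin), from 100 µg of total RNA each. The authors deposited gene levels in FPKM for the 6 input libraries and a table of differential peaks. Of the expression columns, those named NC carry the control's name, and those named sh were assigned to the hairpin against NAT10 because no other input group remained. No immunoprecipitated library was analysed here. Per the file headers, the deposited peak table gives a fold enrichment, a log2 fold change, the p-value with which each peak was called, and log10 scores for the p and FDR of the differential test, whose test and pooling are not stated. The deposited number of motif sites per peak is another count. Per the submitters' processing notes, cutadapt 2.5, HISAT2 2.1.0 and HOMER 4.10.4 were used, and builds GRCh38 and GRCm38 are named. The counting tool, annotation and peak caller are not given in the sources used here.

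Genes averaging 1 FPKM or more were tested with limma 3.58.1 in R 4.3.3 (lmFit, eBayes with trend, 212.6 prior degrees of freedom) on log2(FPKM + 1), shNAT10 minus shNC, with a call at a Benjamini-Hochberg adjusted p under 0.05. SE and p thus rest mostly on genes of like level. All 8 tubulin genes passed the filter. Single genes also had exact two-sided permutation tests (SciPy 1.17.1). Whole fragments were recovered from the deposited FPKM: RefSeq lengths of mitochondrial genes gave each library's denominator, and the common denominator of a gene's values gave its length. Of 15014 genes above 0, 15013 came out whole within 0.001, which the method favours by construction. The scripts were tested on simulated data.

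The tubulin genes, lists and markers were chosen with earlier results of these data known. Genes named are the 8 members, NAT10, per list those past the test or else the 2 of highest mean FPKM, the 5 genes most like the summed tubulin level, and the 2 most abundant tubulin pseudogenes. Genes overlapping or carrying peaks and TBCE were added after their values were seen. Same-numbered libraries did not deviate together from their group means (correlations 0.00, -0.02 and 0.01), and the numbers were not used as pairs.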

Additional observations from a re-analysis of the deposited data

How the results depend on the processing

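No tubulin gene tested passed in any of the 15 alternatives run (lowest adjusted p 0.379, TUBB without replicates 2 and 3 of the libraries labelled shNAT10, where TUBB was 1.83 higher). TUBB stayed positive in 15 of 15, from 0.83 after quantile normalization. The replicate block left TUBB at 1.19 (limma adjusted p = 0.821) and changed no tubulin call. Of 115 values for single tubulin genes, 19 had the other sign, all from main values within 0.43 of 0, and the cause was not tested. With a pseudocount of 0.1 TUBA1A was 0.25. On the TPM scale TUBB4B was -0.12. After quantile normalization TUBA1A was 0.41, TUBB2A 0.60 and TUBB4B -0.15. With voom on whole fragments (an alternative added after seeing the data) TUBA1A was 0.65 and TUBB4B -0.02. Without replicate 1 of the libraries labelled shNAT10 TUBA1A was 0.32 and TUBB4B -0.49, without replicate 2 TUBA1B was 0.05 and TUBA1C -0.48, and without replicate 3 TUBA1B was 0.22 and TUBB2A 0.08. Without shNC replicate 1 TUBA1B was 0.18 and TUBB4B -0.07, without replicate 2 TUBA1B was 0.14, and without replicate 3 TUBB2A was 0.03. Without replicates 2 and 3 of the libraries labelled shNAT10 TUBA1B was 0.60, TUBB2A 0.97 and NAT10 -1.81, and the remaining library was assumed to vary like shNC. With single replicates left out, TUBA1A ran from -0.83 to 0.32, TUBA1B from -0.35 to 0.22, TUBA1C from -0.48 to 1.44, TUBB2A from -1.04 to 0.08, TUBB4B from -0.49 to 0.67, TUBB6 from -1.52 to -0.29 and NAT10 from 0.62 to 3.13. By voom NAT10 was 0.44. The median of the 8 was -0.20 on the TPM scale and 0.50 after quantile normalization. Without replicates 2 and 3 of the libraries labelled shNAT10 it was 0.63 over 7 genes, since TUBA4A was not tested there.

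Over all genes limma called 20. The count was 0 with no filter (340 at an unadjusted p under 0.05), 10 at a mean FPKM of at least 5, 0 without replicates 2 and 3 of the libraries labelled shNAT10 (1139) and 95 by voom. It ranged from 1 to 34 with a replicate left out: 1 without shNC replicate 1, 2 or 3, and 12, 34 and 23 without replicates 1, 2 and 3 of the libraries labelled shNAT10. The TUBB peak count of 3 was the same at a differential FDR under 0.01 and by overlap with the RefSeq gene. TUBB2A, TUBA1A and TUBA4A held 0 to 19 fragments in each library, with 2 exceptions, 132 for TUBA1A in shNC replicate 3 and 194 for TUBA4A in replicate 3 of those labelled shNAT10.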
